A study of Mus musculus with 44 samples.

Results

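The 20 heterozygous embryos of this series, of 44 two-cell embryos in all, fall into 2 groups that share the embryo genotype and the maternal genotype but differ in the genotype of the father. The 15 embryos labelled HET1 came from Dppa2/4 maternal knockout females (labelled cKO) mated with wild-type males, and the 5 embryos labelled HET2 from cKO females mated with males heterozygous for the Dppa2/4 null allele (labelled HET). Membership follows from these labels. The females were homozygous for a conditional allele spanning both genes on a C57Bl/6 background, and Cre driven by the Zp3 promoter removed it in growing oocytes, so that all 20 embryos lacked maternal Dppa2 and Dppa4 and carried 1 intact paternal copy. Embryos were collected at E1.5 after natural matings (the ages of the parents are not given in the sources used here), and each was sequenced as a single oligo-dT primed Smart-seq2 library.

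The comparison of HET2 with HET1 asks whether the father's genotype leaves a mark on the transcriptome of embryos that are themselves of 1 genotype. Zygotic genome activation (ZGA) is the start of transcription from the embryo's own genome, and in the mouse most of it falls in the two-cell stage. In parallel, transcripts stored in the oocyte are degraded, so a two-cell embryo holds a changing mixture of maternal and newly made RNA. Dppa2 and Dppa4 are small DNA-binding proteins that form a heterodimer and, in embryonic stem cells, activate genes characteristic of the two-cell stage. The father contributes 1 allele of every autosomal gene, and in these crosses the intact copy of both genes.

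The groups are small and unequal, and father and litter coincide. The HET1 embryos came from 2 matings, numbered 1 (7 embryos) and 2 (8 embryos). The HET2 embryos came from 2 other matings, with 4 embryos from mating 1 and 1 from mating 2. No mating contributed to both groups, so that the father's genotype, the mother and the litter cannot be told apart. The embryos of the cKO x HET matings had been separated into HET2 and homozygous null embryos (HOM, 10 embryos) by the authors from their Dppa2 and Dppa4 transcripts, whereas all embryos of the cKO x WT matings are heterozygous by descent. Total reads ranged from 247667 to 1830316 (median 528166) in HET1 and from 698469 to 2136068 (median 1108889) in HET2, which did not differ past the threshold (two-sided exact permutation p = 0.0503, with an adjusted p of 0.151 over 3 library measures). At an equal depth of 188044 reads on genes, 9754 ± 601 genes (SD, n = 15) were detected in HET1 and 9739 ± 733 (SD, n = 5) in HET2 (exact permutation p = 0.958, adjusted p = 0.958). Mitochondrial genes took 12.1% ± 4.90 of the reads on genes in HET1 (SD, n = 15) and 13.6% ± 7.55 in HET2 (SD, n = 5; exact permutation p = 0.582, adjusted p = 0.874). Levels are given as log2 RPM, the read count of a gene scaled to the size of its library. A gene without reads holds a higher value in a shallow library than in a deep one. Levels under 1.86, at which a gene stood without reads in the shallowest library, were therefore raised to 1.86 in all embryos (the common floor).

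Transcripts of the labelled stage were present: the mean level of a single embryo ranged from 2.92 to 5.55 over 37 genes of the transient two-cell programme and from 4.83 to 7.30 over 62 oocyte genes. Markers of other cells were also read. In all, 7 of 14 cumulus and granulosa markers had a read in HET1 and 7 of 14 in HET2, with a summed level of 6.35 to 102 RPM and 9.02 to 59.5 RPM. Blood markers summed to at most 2.22 RPM in HET1 and 1.16 RPM in HET2, and oviduct epithelium markers to at most 1.92 RPM and 8.16 RPM. Blastocyst markers summed to at most 24.7 RPM in HET1 and 7.49 RPM in HET2. Transcripts known from sperm and spermatids summed to 59.1 to 222 RPM in HET1 (17 of 38 with a read) and 31.9 to 178 RPM in HET2 (15 of 38). Whether these reads come from sperm or from the embryo itself was not tested.

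Dppa2 and Dppa4, the genes deleted in the oocyte, were detected in all 20 embryos, in which the father's copy is the only intact one. Both lie on chromosome 16 in GRCm38 (Dppa4 from 48283733 to 48294237 and Dppa2 from 48303908 to 48319723, forward strand, protein-coding). The lowest, median and highest Dppa2 levels in HET1 were 5.33, 6.10 and 8.43. The HET2 embryos a to e had Dppa2 levels of 5.67, 6.66, 4.77, 6.11 and 8.88. The groups overlapped, and the highest HET2 value belonged to embryo e, the only one from mating 2. For Dppa4 the HET1 levels ran from 3.40 through a median of 5.73 to 7.36, and the HET2 embryos a to e stood at 4.52, 5.24, 5.27, 5.18 and 5.77, all inside the range of HET1. Mean Dppa2 was 6.47 ± 1.02 (SD, n = 15) in HET1 and 6.42 ± 1.54 (SD, n = 5) in HET2, and mean Dppa4 was 5.50 ± 1.19 (SD, n = 15) and 5.20 ± 0.45 (SD, n = 5). No test is given for these means, since the HET2 embryos were recognised by these transcripts. In wild-type embryos (WT, 14 embryos of control females and wild-type males) the lowest Dppa2 level was 7.67 and the lowest Dppa4 level 6.33, and in HOM embryos the highest were 2.06 and 2.02.

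The litters of HET1, which were not sorted by transcript, differed in both genes. In HET1 mating 1 the Dppa2 levels were 6.00, 7.18 and 8.43 (lowest, median, highest), and in HET1 mating 2 they were 5.33, 5.60 and 6.42. Dppa2 was lower in mating 2 by a log2 difference of -1.56 (SE, the standard error, 0.29; adjusted p = 0.000178, limma over 16412 genes). Dppa4 was lower by a log2 difference of -1.79 (SE 0.30, adjusted p = 7.34e-05, limma), with levels of 5.78, 6.20 and 7.36 against 3.40, 4.71 and 5.73, so that the Dppa4 ranges of these litters did not overlap. The mean HET2 levels in mating 1, at 5.80 for Dppa2 and 5.05 for Dppa4, lay next to those of HET1 mating 2 (5.74 and 4.67) and below those of HET1 mating 1 (7.30 and 6.46).

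**Figure D1:**
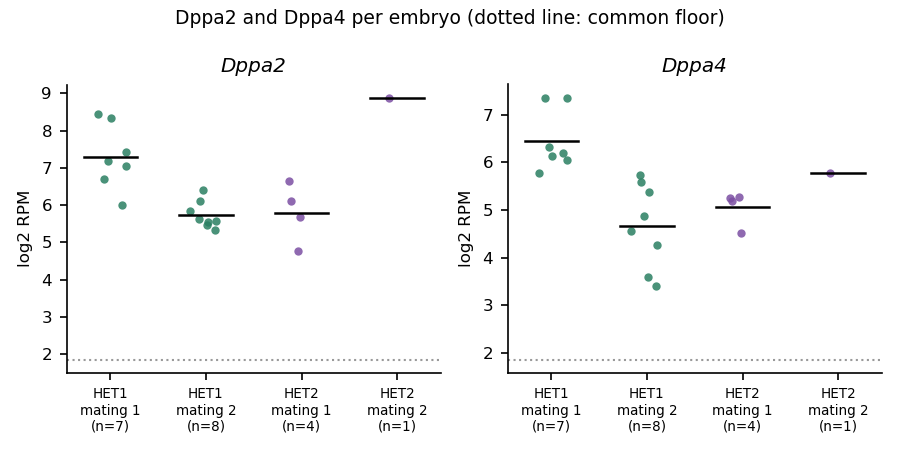
Levels of Dppa2 (left) and Dppa4 (right) in single embryos, as log2 RPM on the vertical axis, for the 4 combinations of group and mating on the horizontal axis; each point is 1 embryo, the bar is the mean and the dotted line the common floor of 1.86. HET1 mating 1 stands above HET1 mating 2 for both genes, and the HET2 embryos of mating 1 lie near HET1 mating 2.

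Across all genes, HET2 and HET1 embryos differed in few genes. Of 16412 genes tested, 2 passed an adjusted p of 0.05 (limma, 0.0122% of the genes tested), both higher in HET2 and both near the floor. Some other settings raised the count, to 6 to 10 without 1 HET2 embryo, 20 with array weights and 45 without HET1 mating 2. Embryos of a litter are not independent, and 0 genes passed with litter as a random effect (269 at an unadjusted p under 0.05) or with litter means as the replicates (483). In these fits the log2 differences were 1.57 and 1.04 for Gm45205 (adjusted p = 0.307 and 0.967, limma) and 1.24 and 1.66 for Gm14325 (adjusted p = 0.307 and 0.967, limma). At an unadjusted p under 0.05 there were 701 genes (4.27%), 427 higher and 274 lower. The median log2 difference over all genes was -0.06. The difference of the means was under 1 on the log2 scale for 97.2% of genes, and the whole 95% confidence interval of the difference lay between -1 and 1 for 46.9% of genes (7694 genes), with a median half-width of 0.79. Among the 6919 genes with a mean deposited log2 RPM of at least 3 the interval lay inside these bounds for 21.1%, with a median half-width of 1.03, so that for most of these genes a 2-fold difference in 1 direction or the other is not excluded. In 0 genes did the levels of the 5 HET2 embryos all lie above or all below those of the 15 HET1 embryos (0.0% of genes tested in either direction).

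**Figure D2:**
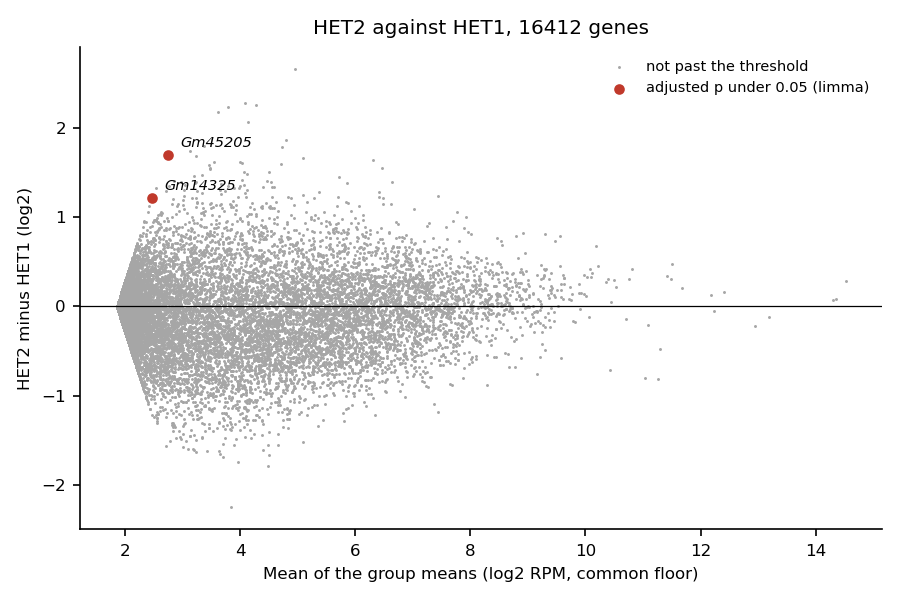
Log2 difference between HET2 and HET1 (vertical axis) against the mean of the group means in log2 RPM (horizontal axis) for 16412 genes; each point is 1 gene, and larger red points mark an adjusted p under 0.05 (limma). The 2 marked genes, Gm45205 and Gm14325, lie at the low end of expression, and most of the cloud lies between -1 and 1.

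The called genes fell outside the rule by which genes were named (a mean of at least 4 in the higher group, and both HET2 litter means on 1 side of both HET1 litter means), and are named because they were the only calls. Gm45205 is a gene model without an assigned coding status (type TEC, to be experimentally verified) on chromosome 7, from 127993269 to 127996598 on the forward strand of GRCm38. The HET2 embryos a to e carried 23, 14, 15, 27 and 0 reads of it. Of the 15 HET1 embryos, 4 carried any, with at most 3 reads. The 4 HET2 embryos with reads were the 4 of mating 1, and the single embryo of mating 2 stood with HET1 at no reads. The level was 3.60 ± 1.09 (SD, n = 5) in HET2 and 1.91 ± 0.17 (SD, n = 15) in HET1, a log2 difference of 1.69 (SE 0.28, adjusted p = 0.00757, limma). Pycard, which encodes an inflammasome adaptor on the opposite strand, overlaps its 5′ end by 599 bp, and the authors counted without regard to strand, so reads of the pair cannot be fully told apart. Pycard itself had 8, 3, 18, 8 and 0 reads in the HET2 embryos and at most 7 in HET1, a log2 difference of 0.74 (SE 0.26, adjusted p = 0.963, limma).

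Gm14325, a protein-coding gene model on chromosome 2 (177831791 to 177840336, reverse strand), had 36, 0, 0, 11 and 33 reads in HET2 embryos a to e. In HET1, 4 of 15 embryos had any read and none had more than 1. Embryos from both HET2 matings were thus among the high ones, and 2 of the 5 HET2 embryos could not be told from HET1. The level was 3.08 ± 1.16 (SD, n = 5) in HET2, and all HET1 embryos were at the floor of 1.86, a log2 difference of 1.21 (SE 0.21, adjusted p = 0.00967, limma). Without the floor the log2 differences were larger, 2.40 for Gm45205 and 1.81 for Gm14325, and neither gene was called (adjusted p = 0.436 for both, limma). Gm14325 was also not called without embryo a (adjusted p = 0.132, limma) or without embryo e (adjusted p = 0.0764, limma). Modelled with only the HET1 and HET2 embryos, the differences were the same, at 1.69 and 1.21, with adjusted p values of 0.088 and 0.711 (limma).

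The 250 bases before the RefSeq start of Gm14325 (GRCm38.p6, chr2:177840337-177840586, reverse strand, printed 5′ to 3′) are shown because this was 1 of the 2 called genes, with its 3 CG dinucleotides in capitals. No such window was found in the RefSeq table for Gm45205, Dppa2 or Dppa4.
Gm14325: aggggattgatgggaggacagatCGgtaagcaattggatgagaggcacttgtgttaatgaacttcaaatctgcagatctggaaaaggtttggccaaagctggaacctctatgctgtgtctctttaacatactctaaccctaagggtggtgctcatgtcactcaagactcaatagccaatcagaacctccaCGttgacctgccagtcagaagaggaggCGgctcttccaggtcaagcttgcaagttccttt

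Cenpi, Spc25, Zfp420 and Smad7 did not pass the threshold and were picked by hand after their values were seen. Cenpi, a centromere protein on the X chromosome, had levels of 5.21, 6.21, 3.33, 5.64 and 6.68 in HET2 embryos a to e and of 1.86, 2.91 and 4.82 in HET1 (lowest, median, highest). Of the HET2 embryos, 4 lay above every HET1 embryo and embryo c lay within their range. HET2 embryos b, d and e, the highest, carried 0 reads of Y-linked genes, and a and c carried 589 and 56. HET1 embryos h, l and o, with 1, 0 and 0 such reads, had Cenpi levels of 2.25, 4.82 and 1.86. The part of embryo sex in these levels was not tested. The log2 difference of Cenpi was 2.25 (SE 0.55, adjusted p = 0.213, limma). Spc25, a subunit of the Ndc80 kinetochore complex, stood at 8.41, 9.22, 7.54, 7.99 and 8.97 in HET2 against 6.37, 7.47 and 8.28 in HET1, a log2 difference of 1.01 (SE 0.24, adjusted p = 0.208, limma). Its ranges overlapped in embryos c and d. Leaving out 1 HET2 embryo at a time, the adjusted p of Cenpi ran from 0.0318 (without embryo c) to 0.530 (without embryo b), and that of Spc25 likewise from 0.0318 (without c) to 0.530 (without b; limma), and embryo c was the lowest HET2 embryo for both genes. Zfp420, a zinc finger gene, had levels of 4.19, 4.31, 4.77, 5.11 and 5.14 in HET2, while HET1 ran from 1.86 through 1.86 to 4.26, a log2 difference of 2.18 (SE 0.50, adjusted p = 0.204, limma). Smad7, an inhibitor of TGF-beta signalling, was at 2.71, 1.86, 2.103, 4.25 and 2.67 in HET2 and at 2.901, 5.11 and 6.79 in HET1, a log2 difference of -2.25 (SE 0.60, adjusted p = 0.394, limma).

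**Figure D3:**
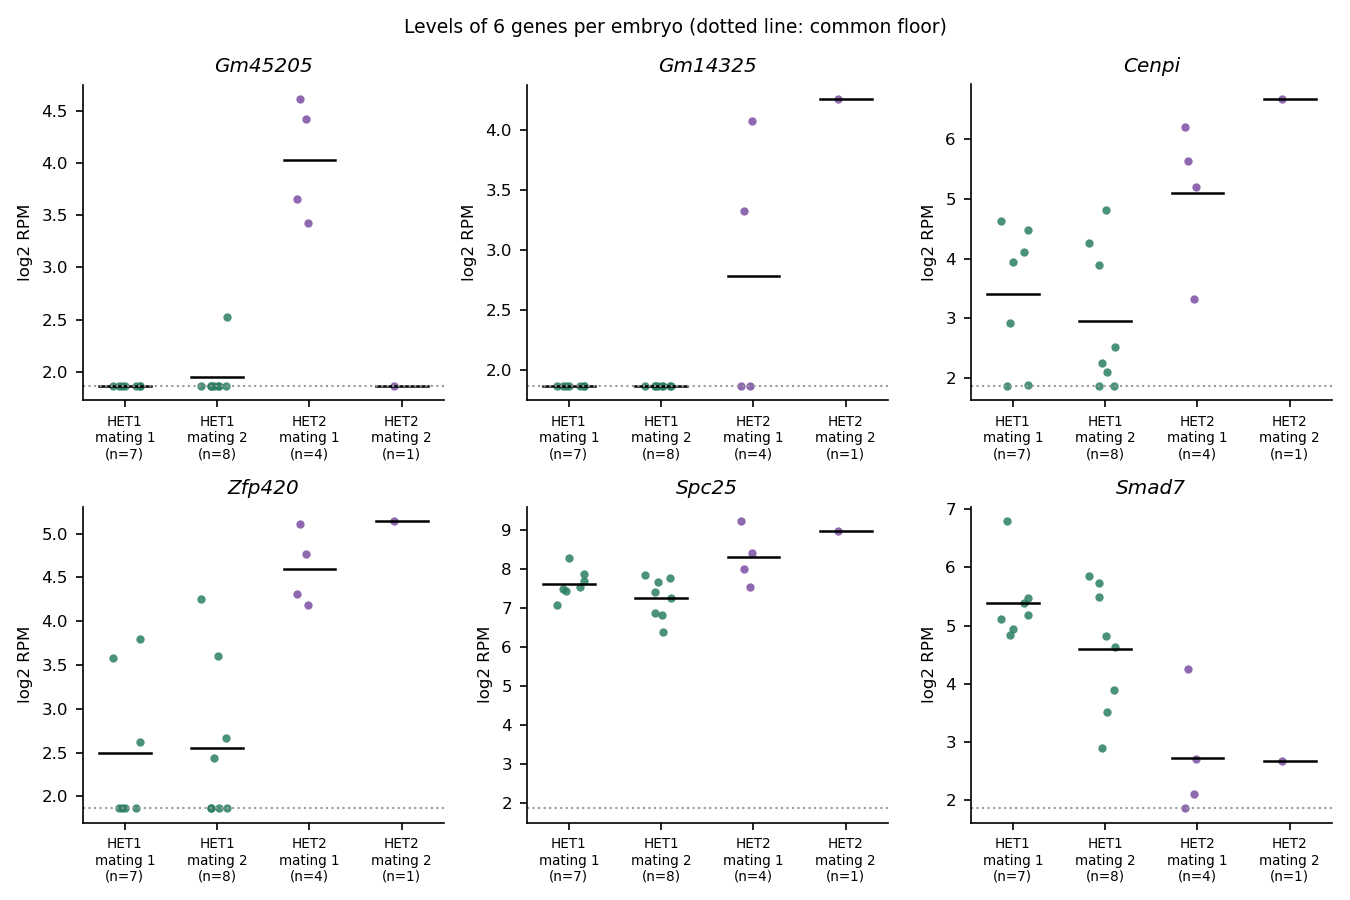
Levels of 6 genes in single embryos (log2 RPM, vertical axis) by group and mating (horizontal axis); points are embryos, bars are means and the dotted line is the common floor of 1.86. Gm45205 and Gm14325 passed the threshold and Cenpi, Zfp420, Spc25 and Smad7 did not; in HET1 the first pair lies at or next to the floor.

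Genes were then grouped by function, and 0 genes of the lists were called between HET2 and HET1, against 0.0122% of all genes. With so few calls in all, a count of 0 says nothing particular about any list. The genes named below are, unless stated otherwise, the 1 or 2 of highest level in their list. For 40 genes of genome activation, the median log2 difference was -0.08, and 1 gene was higher and 0 lower at an unadjusted p under 0.05. Npm1, a nucleolar chaperone, stood at 9.25 ± 0.72 (SD, n = 5) in HET2 and 9.19 ± 0.49 (SD, n = 15) in HET1, a log2 difference of 0.06 with a 95% interval of -0.47 to 0.59 (limma). Slc34a2, a phosphate transporter, differed by -0.06 with an interval of -0.55 to 0.43. For 37 transient two-cell genes the median was 0.10, with 0 genes at an unadjusted p under 0.05 in either direction. The interval ran from -1.61 to 1.502 for Gm5662 and from -0.85 to 0.45 for Ubtfl1. For 62 oocyte genes, the median was 0.03, and Spin1, a histone reader abundant in the oocyte, had an interval of -0.90 to 0.78, and Omt2b, an oocyte transcript, of -0.82 to 1.09. With each embryo shifted to a common median, which moved the median of all genes from -0.06 to 0, the medians were 0.13 for genome activation (a change of sign), 0.23 for two-cell and 0.21 for oocyte genes, and with the deposited values and no floor they were -0.08, -0.04 and -0.05, while the median of all genes was -0.43.

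Lists chosen for the father's contribution also held 0 called genes, where 0.0122% of all genes were called. Paternally expressed imprinted genes had a median log2 difference of -0.02 over 20 genes tested of 36 in the table. The counts do not separate the parental alleles, so the part read from the sperm-derived allele was not tested. Of 38 transcripts known from sperm and spermatids 14 were tested, with a median of -0.06, and of 31 maternally expressed imprinted genes 22 were tested. Usp29, a paternally expressed gene, was at 6.94, 4.94, 4.52, 5.59 and 7.01 in HET2 and ran from 3.03 through 5.94 to 7.66 in HET1. Ldhc, a testis-type lactate dehydrogenase, was at 2.49, 3.31, 4.22, 3.56 and 3.30 in HET2 and from 1.86 through 4.18 to 6.06 in HET1, and its log2 difference of -0.81 had an interval of -1.95 to 0.33. All HET2 values of these genes lay inside the range of HET1. Among chromatin regulators, 39 Polycomb and trithorax genes had a median of 0.01 and 21 DNA methylation regulators of -0.02. With each embryo shifted to a common median, the paternally expressed imprinted genes and the DNA methylation regulators changed sign, to 0.14 and 0.19, and the Polycomb and trithorax list did so with no floor, at -0.15. Dppa3, which protects the maternal genome from demethylation, had levels of 9.78, 9.35, 11.14, 10.86 and 9.29 in HET2 against 9.93, 10.75 and 11.80 in HET1, and its log2 difference of -0.71 had an interval of -1.31 to -0.11, with an adjusted p of 1.0 (limma).

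In lists of protein synthesis and metabolism 0 genes were called, against 0.0122% of all genes, and the medians of some lay below that of all genes. Cytoplasmic ribosomal proteins had a median log2 difference of -0.60 over 79 genes, against -0.06 for all genes, with 10 genes lower and 0 higher at an unadjusted p under 0.05 (background 1.67% lower and 2.6% higher) and 0 past the adjusted threshold. Rplp0 stood at 8.77 ± 0.93 (SD, n = 5) in HET2 and 9.53 ± 0.66 (SD, n = 15) in HET1, a log2 difference of -0.76 (95% interval -1.59 to 0.07), and Rpl41 differed by -0.88 (-1.81 to 0.04). For 36 proteasome subunits the median was -0.45 and for 76 nuclear genes of the respiratory chain -0.35, while 13 mitochondrially encoded mRNAs had a median of -0.05. With each embryo shifted to a common median, the medians were -0.40 for ribosomal proteins, -0.26 for the proteasome and -0.16 for the respiratory chain, and 2 lists changed sign, nucleolar and rRNA processing factors (65 genes) from -0.11 to 0.10 and mitochondrially encoded mRNAs from -0.05 to 0.16. Between HET2 mating 1 and HET1 mating 2 alone, the medians were -0.28 for ribosomal proteins, 0.07 for the proteasome and 0.00 for the respiratory chain.

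The other lists also held 0 called genes, where 0.0122% of all genes were called. Their median log2 differences were -0.19 over 21 pluripotency factors, -0.06 over 23 maternal mRNA decay factors, 0.07 over 23 heat shock proteins, -0.07 over 35 cell cycle regulators. They were -0.19 over 22 genes of the p53 pathway, -0.18 over 40 glycolysis and citrate cycle enzymes and 0.07 over 33 germline genes silenced by DNA methylation. Decay factors and cell cycle regulators changed sign on shifting to a common median, to 0.09 and 0.10.

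The study singled out 5 genes across its own comparisons, which were chosen on these samples and are no independent evidence. Of these, 0 of 5 were called between HET2 and HET1, where 0.0122% of all genes were called. Serinc1, a serine incorporator, was at 1.86, 4.17, 2.103, 3.95 and 5.34 in HET2 and ran from 2.01 through 4.87 to 6.54 in HET1, a log2 difference of -1.38 (SE 0.53, adjusted p = 0.969, limma). Lmo1, Fbxw4, Gm17018 and Ptov1 had differences of -0.22, -0.21, -0.18 and -0.41 with standard errors of 0.72, 0.70, 0.64 and 0.62. Reads of Fbxw4 and Gm17018 cannot be fully told apart, since 1510 bp of these genes overlap.

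The HET1 litters differed from each other in many genes. Within HET1, where all embryos had a cKO mother and a wild-type father, 2721 of 16412 genes were called between mating 2 and mating 1 (16.6%), 814 higher (4.96%) and 1907 lower (11.6%) in mating 2. The 4 HET2 embryos of mating 1 differed from HET1 mating 1 in 538 genes (3.28%), 180 higher (1.1%) and 358 lower (2.18%), and from HET1 mating 2 in 2 genes (0.0122%), both higher, which were Gm45205 and Dubr, a long non-coding RNA gene. With each embryo shifted to a common median, 1265 genes were higher and 1264 lower between the HET1 litters, 289 and 206 between HET2 mating 1 and HET1 mating 1, and 8 and 3 between HET2 mating 1 and HET1 mating 2. The count of 538 was 226 without embryo c of HET2, 239 without embryo a, 311 without embryo b and 554 without embryo d. Against HET1 mating 2, the count of 2 was 16 without embryo a, 12 without b, 8 without c and 7 without d. Library measures also moved with litter. The mean mitochondrial share of reads on genes was 14.7% in HET1 mating 1, 9.77% in HET1 mating 2 and 10.7% in HET2 mating 1, and 25.2% in embryo e. At equal depth, a mean of 10140 genes was detected in HET1 mating 1, 9417 in HET1 mating 2 and 9933 in HET2 mating 1, and 8965 in embryo e. The 14 cumulus and granulosa markers summed to 45.2 to 102 RPM in HET1 mating 1, 6.35 to 71.7 RPM in HET1 mating 2 and 9.02 to 59.5 RPM in HET2 mating 1, and to 17.96 RPM in embryo e. Of these markers 4 were tested and 1 was lower in HET1 mating 2 than in mating 1, which was Amhr2, the receptor of anti-Mullerian hormone (log2 difference -1.55, adjusted p = 0.0415, limma; 0 of 4 after shifting to a common median), while Amh, Fshr, Has2, Inhba, Lhcgr, Ptgs2 and Ptx3 had 0 reads in all 20 embryos. The part of these measures in the litter differences was not tested. The groups of 7, 8 and 4 embryos differ in power, and these comparisons share litters, so their calls are not independent of each other.

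**Figure D4:**
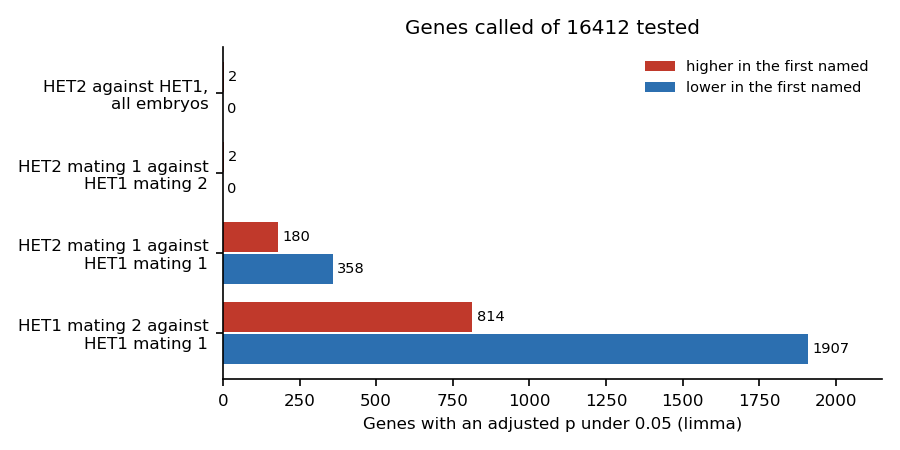
Number of genes with an adjusted p under 0.05 (limma, 16412 genes tested; horizontal axis) in 4 comparisons (vertical axis), with red bars for genes higher and blue bars for genes lower in the first-named embryos. The comparison of HET2 with HET1 over all embryos and that of HET2 mating 1 with HET1 mating 2 give 2 genes each, against 538 and 2721 for the comparisons with HET1 mating 1.

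Similarity between single embryos followed the same division. Across the 6919 genes of higher level, the median Pearson correlation between embryos was 0.753 within HET1 mating 1 (21 pairs) and 0.758 within HET1 mating 2 (28 pairs), but 0.603 between these litters (56 pairs). HET2 embryos of mating 1 had a median of 0.77 with HET1 mating 2 (32 pairs) and 0.645 with HET1 mating 1 (28 pairs). Within HET2 mating 1 the median was 0.772 (6 pairs). Embryo e, the HET2 embryo of mating 2, had a median of 0.679 with HET1 mating 1 and 0.552 with HET1 mating 2. With the HET2 embryos of mating 1 its median was 0.665 (4 pairs). These correlations are across genes, share libraries and depth, and are given without a test.

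The genes that separated the litters included the transient two-cell programme. Between the HET1 litters, 20 of 37 such genes were higher and 1 lower in mating 2, with a median log2 difference of 1.71 against -0.06 for all genes tested, of which 4.96% were higher and 11.6% lower. HET2 mating 1 exceeded HET1 mating 1 in 7 of the 37 and was lower in 0 (1.1% of all genes were higher), with a median of 1.24, and in 0 genes did it differ from HET1 mating 2, with a median of -0.12. The mean level over the list was 3.06, 3.49 and 4.26 in HET1 mating 1 (lowest, median, highest) and 4.43, 4.83 and 5.55 in HET1 mating 2, without overlap. The HET2 embryos a to d stood at 4.88, 3.99, 5.20 and 4.89, and embryo e at 2.92, below every HET1 embryo. Embryo b lay inside the range of HET1 mating 1, and a, c and d inside that of HET1 mating 2. The mean of the list was 4.49 in HOM mating 1 and 3.37 in HOM mating 2, which share their matings with HET2, and 3.75 and 3.66 in the WT litters. Zscan4d, a SCAN and zinc finger gene that marks this programme and was chosen for its promoter, had levels of 2.50, 4.68 and 5.35 in HET1 mating 1 and of 5.38, 5.96 and 7.55 in HET1 mating 2, a log2 difference of 2.07 (SE 0.53, adjusted p = 0.00553, limma). The HET2 embryos a to e had Zscan4d levels of 5.87, 5.44, 5.16, 6.01 and 2.02. Between HET2 mating 1 and HET1 mating 1 the difference in Zscan4d was 1.44 (SE 0.64, adjusted p = 0.208, limma). Its paralogue Zscan4c, with which it can share reads, lay near the floor, with 18, 1, 15, 13 and 0 reads in HET2 embryos a to e and at most 10 in HET1 mating 1. Zscan4c was higher in HET1 mating 2 than in mating 1 by 0.82 (SE 0.28, adjusted p = 0.039, limma) and in HET2 mating 1 than in HET1 mating 1 by 1.19 (SE 0.34, adjusted p = 0.0459, limma).

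The upstream windows of this pair are printed because the Zscan4 genes are targets of Dux, the transcription factor that Dppa2 and Dppa4 activate in embryonic stem cells. The search was for the core of the mouse Dux motif, on both strands, in the 250 bases before each RefSeq start. It was found in 4 of 18 windows for the tested two-cell genes (those of Zscan4b, Zscan4c, Zscan4d and Zscan4f) and in 58 of 32851 windows overall (0.177%). All 4 are paralogues of 1 family, already named above as targets of Dux, so the matches are not independent evidence. No window of another gene of the list held the motif. Only 18 of the 37 genes had a window, so the share over the whole list is void. The match, on the reverse strand and in capitals, starts 114 bases before the start of Zscan4c (chr7:11005495-11005744, forward strand) and 125 bases before that of Zscan4d (chr7:11166149-11166398, reverse strand; both GRCm38.p6, printed 5′ to 3′). A match is a description of letters and not a measured binding site.
Zscan4c: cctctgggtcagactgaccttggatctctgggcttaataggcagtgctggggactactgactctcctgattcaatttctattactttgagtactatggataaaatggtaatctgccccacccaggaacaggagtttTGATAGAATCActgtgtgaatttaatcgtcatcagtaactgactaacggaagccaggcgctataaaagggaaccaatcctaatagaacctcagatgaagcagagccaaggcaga
Zscan4d: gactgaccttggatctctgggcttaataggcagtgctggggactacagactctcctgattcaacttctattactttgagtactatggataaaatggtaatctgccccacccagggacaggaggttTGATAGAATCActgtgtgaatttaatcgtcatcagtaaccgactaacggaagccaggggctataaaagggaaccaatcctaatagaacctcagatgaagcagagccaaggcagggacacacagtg

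Oocyte transcripts moved with the two-cell genes. Of 62 oocyte genes, 30 were higher and 0 lower in HET1 mating 2 than in HET1 mating 1 (median 1.19), where 4.96% of all genes were higher and 11.6% lower. HET2 mating 1 exceeded HET1 mating 1 in 9 of them and was lower in 0 (median 0.96, with 1.1% of all genes higher). After shifting to a common median 17 oocyte genes were higher than in HET1 mating 1, and 15 with no floor. In these settings 289 and 116 of all 16412 genes were higher. From HET1 mating 2, HET2 mating 1 differed in 0 oocyte genes (median -0.34). The mean level over the list was 4.83, 5.59 and 6.15 in HET1 mating 1 and 6.13, 6.97 and 7.30 in HET1 mating 2. It was 6.18, 6.09, 7.08, 6.55 and 5.12 in HET2 embryos a to e. Embryos b and e lay inside the range of HET1 mating 1 and below that of HET1 mating 2, and a, c and d inside that of HET1 mating 2. Omt2b was at 10.07, 11.33 and 12.22 in HET1 mating 1 and at 12.68, 12.76 and 13.55 in HET1 mating 2, while HET2 embryos a to e had 12.62, 12.44, 12.69, 12.70 and 10.76. The difference of HET2 mating 1 from HET1 mating 1 was 1.38 (SE 0.40, adjusted p = 0.0459, limma) and that from HET1 mating 2 was -0.27 (SE 0.39, adjusted p = 1.0, limma). Of 23 decay factors of maternal mRNA, 7 were higher and 1 lower in HET1 mating 2 than in mating 1 (median 0.07), and 3 were higher and 0 lower in HET2 mating 1 than in HET1 mating 1 (median 0.02). The members of highest level were Btg4 and Cnot7. Btg4, an adaptor of the CCR4-NOT deadenylase that clears maternal mRNA, was higher in HET2 mating 1 than in HET1 mating 1 by 2.13 (SE 0.43, adjusted p = 0.00434, limma), and Cnot7, a catalytic subunit of that complex, by 1.47 (SE 0.40, adjusted p = 0.0329, limma). In HET1 mating 2 both exceeded mating 1, by 2.52 (SE 0.36, adjusted p = 5.52e-06, limma) and 1.57 (SE 0.33, adjusted p = 0.000833, limma).

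Genes of protein synthesis and turnover were mostly lower where called. Between the HET1 litters 0 of 65 nucleolar and rRNA processing factors were higher and 30 lower in mating 2 (median -0.99), where 11.6% of all genes were lower. The counts were 1 higher and 27 lower of 79 ribosomal proteins (median -1.01), 0 and 19 of 36 proteasome subunits (median -1.32) and 1 and 28 of 76 nuclear respiratory chain genes (median -0.91). Genome activation genes were higher in 2 and lower in 13 of 40 (median -0.55). After shifting each embryo to a common median the lower genes between the HET1 litters were 20 nucleolar factors, 13 ribosomal proteins, 16 proteasome subunits, 18 respiratory chain genes and 9 genome activation genes, and 0, 1, 0, 3 and 3 genes were higher, where 1265 of all genes were higher and 1264 lower, with medians of -0.67, -0.66, -1.04, -0.63 and -0.20. HET2 mating 1 was lower than HET1 mating 1 in 11 ribosomal proteins, 9 proteasome subunits, 5 respiratory chain genes, 2 nucleolar factors and 1 genome activation gene, with 0 higher in each list and medians of -1.22, -1.32, -0.94, -0.77 and -0.45. Of all genes 2.18% were lower in this comparison, a share near that of the 2 of 65 nucleolar factors and the 1 of 40 genome activation genes. Against HET1 mating 2 it differed in 0 genes of these lists, with medians of -0.28, 0.07, 0.00, 0.30 and 0.19. After shifting each embryo to a common median, the medians of the differences from HET1 mating 1 were -0.87, -0.97, -0.65, -0.42 and -0.11. In that setting 8, 9, 2, 1 and 1 genes were lower, with 1 genome activation gene higher. Of all 16412 genes 206 were lower and 289 higher there. The shares of the respiratory chain, nucleolar and genome activation lists were near those of all genes. The mean proteasome level was 5.60, 5.82 and 6.64 in HET1 mating 1 and 3.93, 4.51 and 5.02 in HET1 mating 2, and 4.23, 4.39, 4.87, 5.15 and 5.32 in HET2 embryos a to e, all below HET1 mating 1. Psma3, a subunit of the 20S core, was lower in HET1 mating 2 than in mating 1 by a log2 difference of -0.997 (SE 0.26, adjusted p = 0.0069, limma), and HET2 mating 1 lay between, at -0.52 from mating 1 (SE 0.32, adjusted p = 0.397, limma).

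**Figure D5:**
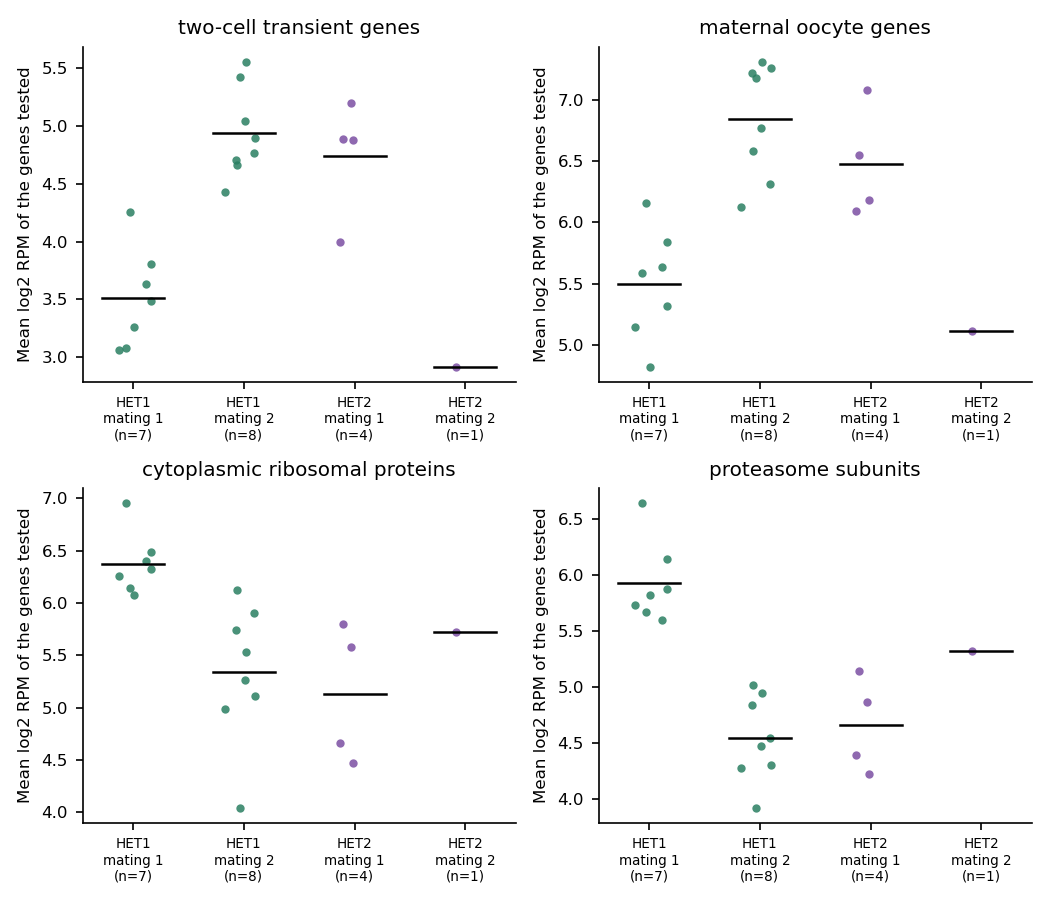
Mean log2 RPM over the tested genes of 4 lists (vertical axis) in single embryos by group and mating (horizontal axis); points are embryos and bars are means. The means of the two-cell and oocyte lists are higher in HET1 mating 2 and HET2 mating 1 than in HET1 mating 1 and the HET2 embryo of mating 2, and the ribosomal protein and proteasome lists are highest in HET1 mating 1.

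The CG content of the upstream windows was counted for these lists. The median number of CG dinucleotides per 250-base window was 2 for oocyte genes (windows for 50 of 62 genes), 16.5 for nucleolar factors (55 of 65), 14 for respiratory chain genes (62 of 76) and 15 for proteasome subunits (30 of 36), against 6 for all 32851 windows. The counts are a description of the sequence and carry no test. Omt2b (chr9:78327780-78328029, forward strand) has 1 CG and Psma3 (chr12:70974373-70974622, forward strand) has 8, fewer than the median of the proteasome list. Both windows are shown because these genes are described above, with CG in capitals (GRCm38.p6, RefSeq, printed 5′ to 3′). Windows were found for under 80% of ribosomal protein and genome activation genes, so no count is given for them.
Omt2b: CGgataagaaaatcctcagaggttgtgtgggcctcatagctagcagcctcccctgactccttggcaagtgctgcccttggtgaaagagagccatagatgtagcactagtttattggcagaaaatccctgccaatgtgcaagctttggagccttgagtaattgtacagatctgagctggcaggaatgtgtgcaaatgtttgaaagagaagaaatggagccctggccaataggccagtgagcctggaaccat
Psma3: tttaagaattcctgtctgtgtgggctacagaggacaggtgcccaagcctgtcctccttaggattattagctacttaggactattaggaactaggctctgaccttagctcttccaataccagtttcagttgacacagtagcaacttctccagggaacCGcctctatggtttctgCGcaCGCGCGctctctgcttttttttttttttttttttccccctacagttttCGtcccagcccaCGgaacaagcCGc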

How the data were processed

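The RNA-seq libraries of 20 heterozygous two-cell embryos were compared, with the WT and HOM embryos in the same model. The authors trimmed reads (Trim Galore 0.6.5, cutadapt 2.3), mapped them to GRCm38 with HISAT2 2.1.0, discarded alignments with a MAPQ under 20, and used SeqMonk's RNA-seq pipeline, ignoring strand, for 35269 mRNA probes. The deposited values are log2 RPM, in which a gene without reads holds the value of 0.9 read. The read count behind each value follows from this (99.999% lay within 0.05 of a whole read). Values below 1.86 were set to 1.86. The test was limma (version 3.58.1, R version 4.3.3, eBayes with trend) on 16412 genes with a mean deposited log2 RPM of at least 0 over 44 embryos, with 4 groups, or 8 combinations of group and mating, in the model, and Benjamini-Hochberg adjustment at 0.05. The authors' methods name SeqMonk but no test for this comparison. The members, gene lists and litter comparisons were chosen with earlier results of these data known.

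Named genes were Dppa2, Dppa4, called genes whose litter means all lay on 1 side at a level of at least 4 (0 genes passed), the 2 genes of highest level in each list, and the 5 genes of the study. Embryos are replicates; p-values measure the spread between embryos, which share litters. PCR reads here carry no molecular identifiers, so read counts are not molecule counts. Library measures were compared by exact permutation tests in scipy. Coordinates and gene types come from the deposited table and GENCODE vM21, and sequences from RefSeq. Figures were drawn with matplotlib. Alternatives covered the floor, the genes kept, scaling, litter, weights, voom on recovered reads, thinning, and leaving out litters or embryos.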

Additional observations from a re-analysis of the deposited data

Results flagged for a closer look

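Among 71 results of the 5 HET2 embryos, 3 had 1 embryo far from the other 4, where chance alone flags about 1 group in 20. Embryo e, the only one of mating 2, stood apart in 2 of them: its Omt2b level was 10.76 against 12.44 to 12.70 in the others, and its Zscan4d level was 2.02 against 5.16 to 6.01. In embryo a, Kitl, the gene of KIT ligand and one of the cumulus and granulosa markers, was at 5.56 against 1.86 to 2.84.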

How the results depend on the processing

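The count of 2 genes between HET2 and HET1 changed with most settings. It was 0 with the deposited values and no floor (1854 genes at an unadjusted p under 0.05), with log2(RPM + 1), with genes of a mean log2 RPM of at least 3, with only HET1 and HET2 in the model, with litter as a random effect, with litter means as the replicates, without HET1 mating 1, with limma voom and with thinned reads. It was 4 after re-centring each embryo, 20 with array weights and 45 without HET1 mating 2 (13 higher and 32 lower). It was 538 for HET2 mating 1 against HET1 mating 1, an alternative chosen after seeing the data. Leaving out 1 HET2 embryo gave 6 to 10 genes, all higher in HET2. Gm45205 was called in 14 and Gm14325 in 11 of 22 alternatives (adjusted p from 8.83e-06 to 0.967 and from 6.68e-05 to 0.967), always higher in HET2. A replicate block for the mating number left 2 called genes, both shared with the main result, and the block changed no other call; crossing the numbers of the HET1 litters also gave 2. Equal numbers mark different matings, with males of different genotype, and the labels do not identify the females. The litter differences of HET1 and HET2 had a correlation of -0.58 across 6919 genes, so the numbers do not pair the embryos. Between HET2 mating 1 and HET1 mating 1, leaving out 1 HET2 embryo gave 226 to 554 genes, and between HET2 mating 1 and HET1 mating 2 it gave 7 to 16; the latter count was 0 without a floor or with genes of a mean of at least 3, and 11 after re-centring. The cause of these changes was not tested. The differences in total reads, genes detected and mitochondrial share did not pass the threshold in any setting run.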

Other observations

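Reads of Y-linked genes, which come from the father, were counted in each embryo over 14 genes. All 7 embryos of HET1 mating 1 carried at least 27 such reads. In HET1 mating 2, 5 of 8 embryos carried 10 or more, and the other 3 carried 0 or 1. In HET2, embryos a and c carried 589 and 56, while b, d and e carried 0. The share of embryos with 10 or more Y-linked reads was 12 of 15 in HET1 and 2 of 5 in HET2 (Fisher's exact test, two-sided, p = 0.131, chosen after seeing the data). Uty, a Y-linked demethylase gene, had levels of 6.98, 1.86, 4.43, 1.86 and 1.86 in HET2 embryos a to e. Its log2 difference between the groups was -1.21 (SE 0.93, adjusted p = 1.0, limma), and the part of this composition in other genes was not tested.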
